A study of Homo sapiens with 4 samples.

Results

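The loops described here were H3K27ac loops of M14 melanoma cells that joined 2 promoters over a middle distance. A loop was included where its anchors lay at least 50 kb and less than 500 kb apart and where each 5 kb anchor held an annotated transcript start of any gene type. The WT list held 4679 such loops among 27289 loops, and the STAG2-KD list held 4180 among 25621. They were 17.1% of all loops in WT and 16.3% in STAG2-KD, and 25.1% (95% exact binomial interval 24.5 to 25.8) and 25.3% (24.6 to 26.0) of the loops in the 50 to 500 kb range. Over both lists there were 6934 distinct promoter to promoter loops among 42529 distinct loops.

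M14 is a human melanoma cell line, used here as 1 line in which doxycycline switched on a hairpin RNA that targets STAG2, which belongs to cohesin. STAG2-KD cells had been kept with doxycycline for 5 days, and WT cells carried the same hairpin without doxycycline, so an effect of doxycycline itself and of the knockdown cannot be told apart. The labels gave 2 samples per group, and 1 loop list per group was analysed, with no read support per loop, so differences between the groups could not be set against a spread between replicates and no p-values were calculated. Intervals cover counting error only, and loops that share an anchor are not independent. All loops lay on the 22 autosomes, while STAG2 is on the X chromosome. Loop lists do not measure STAG2 RNA or protein, so they hold no check of the knockdown. Of 18 genes of the melanocyte lineage, 13 had a loop of any kind in WT and 12 in STAG2-KD, against 1 and 1 of 10 hepatocyte genes and 2 and 2 of 10 blood cell genes.

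In HiChIP, DNA ends that are neighbours in the folded genome are ligated, and the ligated fragments are then pulled down with an antibody, here to H3K27ac, the acetylated form of histone H3 that active promoters and enhancers carry. Loops between promoters are a regular feature of such maps, and many promoters lie in gene-dense regions. Cohesin extrudes DNA into loops that are held at CTCF sites, most often where the sites at the loop ends point towards each other, and STAG1 and STAG2 are alternative subunits of this complex.

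The sequences just before the starts of promoters named below are shown first. They let the reader see which letters stood at starts of genes with many loops in both lists and of genes that gained or lost loops. Each stretch comprises the 200 bases before an hg19 transcript start within a loop anchor, free of annotated exons and written 5′ to 3′ on the strand of the gene. Capitals mark matches on either strand to 3 motifs, namely the GC box with the letters GGGCGG, the CCAAT motif, and the NRF1 core with the letters GCATGCGC. SRRT and UBALD2 had among the most loops in both lists, AHDC1 had more loops in STAG2-KD, and MEPCE and TCF25 had more in WT. These kinds overlap, because the MEPCE anchor is also that of ZCWPW1, a gene with among the most loops in both lists. AHDC1 and TCF25 each had 3 anchors, and the stretch shown belongs to a single anchor of each.
SRRT, chr7:100472525-100472724, plus strand: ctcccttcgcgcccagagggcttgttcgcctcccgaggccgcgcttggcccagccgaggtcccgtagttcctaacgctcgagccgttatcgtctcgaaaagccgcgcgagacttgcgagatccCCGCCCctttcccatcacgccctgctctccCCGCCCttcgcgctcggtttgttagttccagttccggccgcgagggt
UBALD2, chr17:74261229-74261428, plus strand: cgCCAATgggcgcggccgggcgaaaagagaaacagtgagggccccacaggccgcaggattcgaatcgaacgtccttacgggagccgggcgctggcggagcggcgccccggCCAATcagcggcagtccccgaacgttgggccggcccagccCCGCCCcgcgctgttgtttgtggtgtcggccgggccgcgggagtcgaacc
AHDC1, chr1:27930943-27931142, minus strand: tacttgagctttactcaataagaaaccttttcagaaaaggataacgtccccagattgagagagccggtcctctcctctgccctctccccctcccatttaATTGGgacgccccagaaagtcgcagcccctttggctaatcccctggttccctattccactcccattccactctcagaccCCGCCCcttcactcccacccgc
MEPCE, chr7:100027254-100027453, plus strand: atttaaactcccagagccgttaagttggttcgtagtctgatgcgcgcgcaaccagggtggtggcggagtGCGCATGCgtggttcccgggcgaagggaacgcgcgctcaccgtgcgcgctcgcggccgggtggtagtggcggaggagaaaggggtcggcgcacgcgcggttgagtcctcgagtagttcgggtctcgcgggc
TCF25, chr16:89939778-89939977, plus strand: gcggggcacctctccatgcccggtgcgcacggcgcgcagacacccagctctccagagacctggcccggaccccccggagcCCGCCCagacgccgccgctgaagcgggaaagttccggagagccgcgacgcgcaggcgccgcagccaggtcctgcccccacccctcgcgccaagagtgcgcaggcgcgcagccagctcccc

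Among 4809 autosomal protein-coding genes with a canonical start in a promoter to promoter loop of either list, 86.9% had a CpG-rich start, defined as GC content over 50% and an observed to expected CpG ratio over 0.6 within 500 bp on either side. The share was 88.2% in the 1069 genes found only in 50 to 500 kb loops with a promoter at a single anchor and 52.8% in the 11786 genes without any loop. A GC box stood within the 200 bases of 68.2% of the genes in promoter to promoter loops, of 69.3% of those with a single-promoter loop, of 49.6% of those without any loop and of 56.8% of all 18977 promoters. For CCAAT the shares in the same order were 34.0%, 31.1%, 28.2% and 30.1%. The NRF1 letters were found in 5.68%, 4.58%, 2.57% and 3.56%, and TATAAA in 4.37%, 3.65%, 9.98% and 7.78%. Among the 10 motifs searched, CCGGAAG, the core of ETS family sites, was the only one whose share differed beyond its interval between the promoters of the 2 kinds of loop, with 18.9% against 14.9% (difference 4.03 points, 95% Newcombe interval 1.52 to 6.33) and 11.0% in all promoters. A match is a description of the letters and not evidence of binding.

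Promoter to promoter loops were found again in the other list more often than loops of the same distance range with fewer promoters. A total of 1925 loops occupied identical bins in both lists, which was 41.1% of the WT loops (39.7 to 42.6) and 46.1% of the STAG2-KD loops (44.5 to 47.6). Of all loops of any kind and distance, 38.0% of the WT list and 40.5% of the STAG2-KD list were shared in this way. With a promoter at a single anchor, 34.9% of WT loops (33.8 to 35.9) and 37.9% of STAG2-KD loops (36.8 to 39.1) were shared. With no promoter at either anchor the shares were 29.8% (28.7 to 31.0) and 35.3% (34.0 to 36.6). Loops with promoters at both ends exceeded those with a single promoter by 6.28 points in WT (4.51 to 8.06) and by 8.14 points in STAG2-KD (6.24 to 10.0), and those with none by 11.3 points (9.49 to 13.1) and 10.7 points (8.75 to 12.7).

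The order held in all 4 distance classes of both lists, although not every step exceeded its interval. Between 50 and 100 kb, 46.1% of WT promoter to promoter loops were shared (43.7 to 48.5), against 36.9% with a single promoter and 31.8% with none. Between 300 and 500 kb the WT shares were 38.5% (34.2 to 42.8), 35.3% (32.3 to 38.3) and 26.5% (23.4 to 29.8), so the first 2 intervals overlapped. In STAG2-KD, sharing of promoter to promoter loops fell along the classes, from 51.2% to 45.4%, 42.1% and 37.9%.

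**Figure D1:**
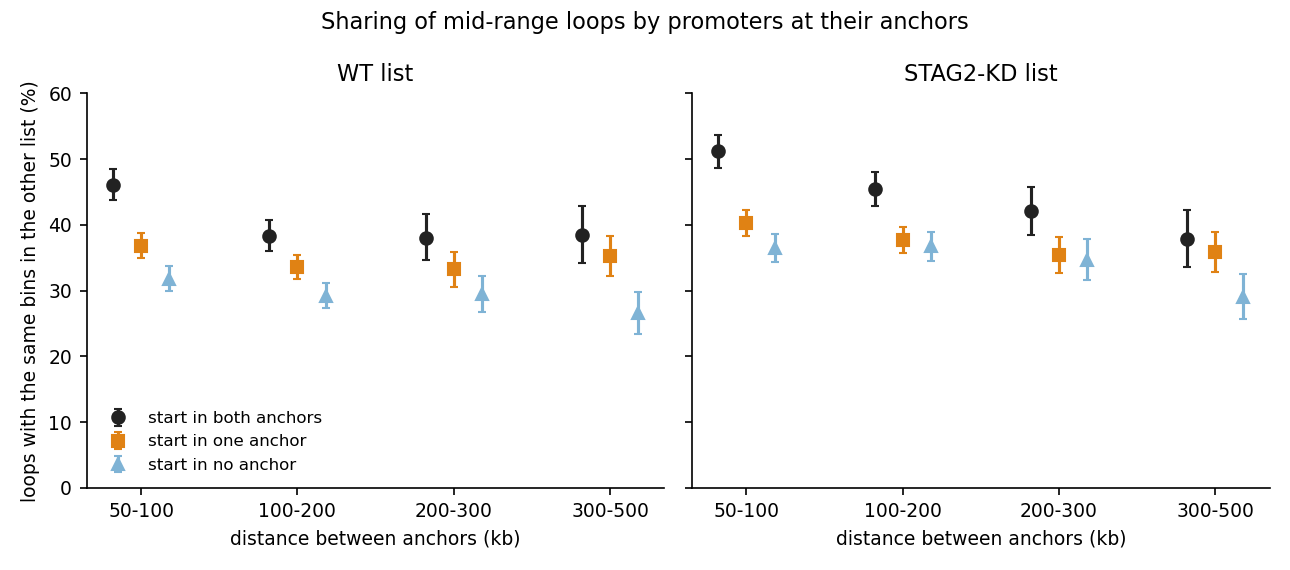
Percent of loops with the same bins in the other list (y axis) by distance between anchors in kb (x axis), for the WT list (left) and the STAG2-KD list (right). Symbols stand for loops with a transcript start in both anchors, in 1 anchor or in none, and bars are 95% exact binomial intervals. Loops with starts in both anchors lie highest in each class, from 46.1% down to 38.1% in WT and from 51.2% to 37.9% in STAG2-KD.

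Sharing also moved with how many loops an anchor had. Where the less connected anchor of a WT promoter to promoter loop had 1 loop of any kind, 27.2% were shared (24.9 to 29.6), and the share was 36.4% with 2 loops, 48.9% with 3 to 5 and 64.6% with 6 or more (60.3 to 68.8). The difference from single-promoter loops was present in the first 3 of these classes, at 21.4%, 30.7% and 44.9%, and was not seen with 6 or more loops, at 64.5% (60.8 to 68.0). In STAG2-KD the shares of promoter to promoter loops were 34.5%, 44.7%, 50.4% and 64.3%, and those of single-promoter loops 24.7%, 35.3%, 47.3% and 63.1%. Sharing further moved with the position of a loop in its list. Of the WT promoter to promoter loops in the earlier 50% of the lines of a chromosome, 51.2% were shared, against 32.9% of the later ones, and the STAG2-KD shares were 52.0% and 40.9%. What orders the lines is not given in the sources used here, and the part of these features in the sharing was not tested.

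The loops found in only 1 list numbered 2754 in WT and 2255 in STAG2-KD, so that 45.0% of the private promoter to promoter loops came from STAG2-KD (43.6 to 46.4). The share was 46.7% for loops with a single promoter (45.7 to 47.7) and 43.8% for loops with none (42.7 to 44.9). Promoter to promoter loops made up 22.7% of the WT-only loops of 50 to 500 kb and 22.4% of the STAG2-KD-only ones, a difference of -0.24 points (-1.34 to 0.87). The private sets of the lists thus differed in number while the share of this kind of loop among them did not differ beyond its interval.

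Most private loops had anchors that the other list also used. These shares are not given here for loops with fewer promoters, so whether they are particular to promoter to promoter loops was not tested. The WT list was also the longer one, with 27289 loops against 25621. Of the WT-only loops, 54.2% had both anchors in some loop of the STAG2-KD list (52.3 to 56.1), 40.2% had 1 and 5.59% had 0. The WT list in turn used both anchors of 62.1% of the loops private to STAG2-KD (60.1 to 64.1), 1 anchor of 34.6% and neither anchor of 3.28%. A loop whose anchors each lay within 1 bin was present in the other list for 7.23% (WT-only) and 8.74% (STAG2-KD-only), and within 2 bins for 15.7% and 19.9%. Where both anchors held protein-coding starts, the same pair of genes was joined by a different promoter to promoter loop of the other list in 14.4% of the loops private to WT (12.9 to 16.0) and 17.1% of those private to STAG2-KD (15.3 to 19.1).

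At the lower limit, the lists held 220 and 197 promoter to promoter loops of 50 kb, of which 46.8% and 52.3% were shared, and just outside it 211 and 200 of 45 kb, of which 45.0% and 47.5% were shared. At the upper limit they held 5 and 7 loops of 495 kb, and just outside it 5 and 6 of 500 kb. The median distance was 130 kb in both lists, and the middle 50% of loops spanned 80 to 210 kb in WT and 80 to 215 kb in STAG2-KD. The median of the shared loops was shorter, at 120 kb, against 135 kb for each of the private sets. The mean distances were 150.3 kb (SD over loops 97.1, n = 1925), 160.8 kb (98.3, n = 2754) and 168.5 kb (106, n = 2255), respectively. Of the STAG2-KD-only loops, 14.2% spanned 300 to 500 kb, against 11.3% of the WT-only loops, a difference of 2.86 points (1.01 to 4.74). In turn 34.8% of STAG2-KD-only and 38.1% of WT-only loops spanned 100 to 200 kb, a difference of -3.32 points (-5.99 to -0.64). The shares between 50 and 100 kb, at 33.0% and 33.2%, and between 200 and 300 kb, at 18.0% and 17.4%, did not differ beyond their intervals (-2.73 to 2.51 and -1.54 to 2.71 points). The larger part at 300 to 500 kb in STAG2-KD was not particular to promoter to promoter loops. Counting shared and private loops together, 984 of 7585 WT and 969 of 6973 STAG2-KD loops with a single promoter spanned this range. With no promoter these were 754 of 6350 and 690 of 5365.

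**Figure D2:**
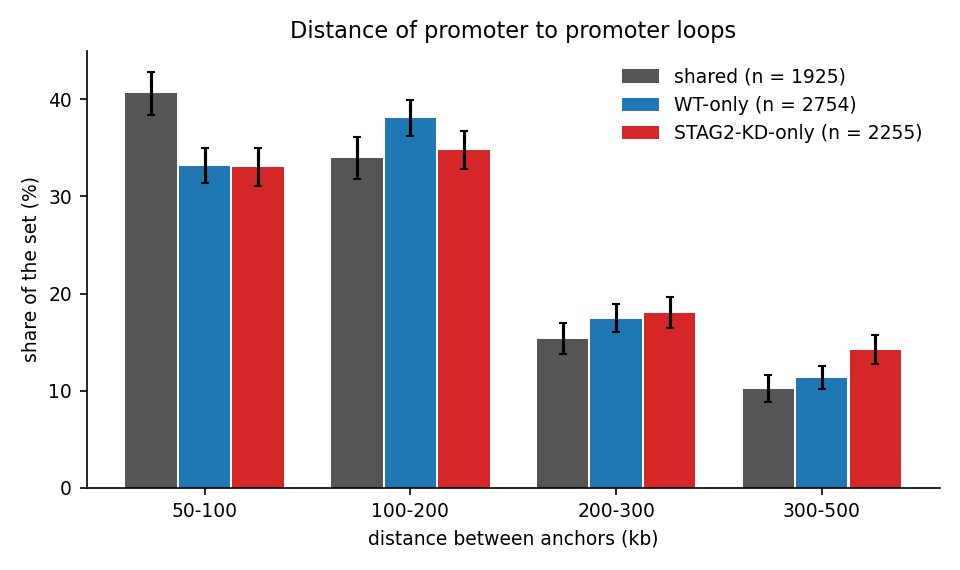
Share of each set of promoter to promoter loops in percent (y axis) by distance between anchors in kb (x axis), for shared, WT-only and STAG2-KD-only loops, with 95% exact binomial intervals as error bars. The shared loops stand highest between 50 and 100 kb at 40.6%, and the STAG2-KD-only loops stand highest between 300 and 500 kb at 14.2%.

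The longest shared loops between different protein-coding genes joined CD63, a tetraspanin of endosomes and melanosomes, to NABP2 and RNF41 over 495 kb on chromosome 12, and PTPA to NTMT1 over 485 kb on chromosome 9. At 480 kb, shared loops joined HECTD3 and UROD to TESK2, LSG1 to XXYLT1, and SLC22A18 to ZNF195. The longest WT-only loops joined GM2A to ATOX1, a copper chaperone, and AKT2, a kinase of insulin signalling, to MIA and RAB4B, both over 495 kb. Those of 490 kb joined MRPS16 to SEC24C, APIP and PDHX to SLC1A2, and MIA and RAB4B to HNRNPUL1, so that the MIA and RAB4B anchor ended 2 of the 5. In STAG2-KD alone, 495 kb loops joined STK32B to EVC and EVC2, GTPBP2 and MAD2L1BP to TMEM63B, and LIG1, the replicative DNA ligase, to RPL18 and SPHK2. A loop of 490 kb joined SH3TC2 to ARHGEF37 and CSNK1A1.

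The anchors were mostly promoters of protein-coding genes. The WT loops used 5494 anchors and the STAG2-KD loops 4900, of which 3372 were the same bins, 61.4% of the former and 68.8% of the latter. A protein-coding start lay in 84.4% of the WT anchors and 84.3% of the STAG2-KD anchors. A long noncoding RNA start lay in 28.3% and 27.7%, and was the only kind of start in 9.46% and 9.27%. Both ends held a protein-coding start in 75.7% of the WT loops (74.5 to 76.9) and 75.4% of the STAG2-KD loops (74.1 to 76.7). This share was 77.9% in shared loops (76.0 to 79.8), 74.2% in WT-only loops (72.5 to 75.8) and 73.2% in STAG2-KD-only loops (71.3 to 75.0). Loops between anchors that both held no protein-coding start were 3.53% and 3.47% of the lists.

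Protein-coding genes joined in this way numbered 4904 in WT and 4405 in STAG2-KD, 25.5% and 22.9% of the 19229 protein-coding genes on autosomes. They formed 4984 gene pairs in WT and 4457 in STAG2-KD, and the 2392 pairs found in both lists were 48.0% and 53.7% of these. The number of genes between joined starts is bounded by the distance range, and it was not set against promoter pairs at equal distance. Genes in between were counted in the 3543 WT and 3151 STAG2-KD loops with protein-coding starts at both ends, including loops within the same gene. No other protein-coding gene had its canonical start between the anchors in 28.3% and 26.7% of these loops. The median number of such genes in between was 2 in both lists, and at least 3 lay in between in 41.0% and 42.9%. Counted in the same way, at least 3 genes lay between the anchors in 38.1% of the shared loops, 43.2% of those private to WT and 47.3% of those private to STAG2-KD. The sets also differed in distance, with medians over all their loops of 120, 135 and 135 kb, respectively. The genes ran on the same strand in 51.5% and 51.8% of the loops whose anchors each held starts of a single strand.

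Some loops joined starts of the same gene. They made up 5.71% of WT loops (5.06 to 6.41) and 5.45% of STAG2-KD loops (4.79 to 6.19), and belonged to 297 genes, 275 of them protein-coding. VPS13D, which encodes a lipid transfer protein of mitochondrial contacts, had 6 such loops in WT and 4 in STAG2-KD, all 4 of which occurred in both lists, over 55 to 180 kb. ABR, a regulator of small GTPases, had 3 and 5 with 3 shared. TCF12, an E-box binding factor, had 4 and 3 with 2 shared. SEPTIN9 had 3 and 3 with 2 shared, and APP, the amyloid precursor, had 3 and 2 with 1 shared. GSK3B, a kinase of Wnt and insulin signalling, with 1 and 4, and LDLRAD4, with 2 and 3, had the same total as APP, each with 1 shared. These genes are long, and their loops joined alternative starts inside the gene body.

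Most anchors had few partners. A single promoter to promoter loop ended at 62.2% of the WT anchors and 62.0% of the STAG2-KD anchors, and the mean was 1.70 (SD over anchors 1.21) and 1.71 (1.21). At least 5 such loops ended at 203 and 190 anchors, and the most at any anchor was 13 in WT and 11 in STAG2-KD. The 8 genes in the most loops are described next, where a gene with several anchors counts the loops of all of them.

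SRRT, which links the nuclear cap-binding complex to RNA processing, lay on chromosome 7 and took part in 17 loops of the WT list and in 15 of the STAG2-KD list, with 11 in common. Its main start and an alternative start near its 3′ end, in the same bin as the start of UFSP1, formed 2 anchors 15 kb apart. Shared loops ran upstream to FBXO24 and LRCH4 (290 and 305 kb), to GNB2, a G protein subunit (215 kb), and to POP7, a subunit of ribonuclease P (170 and 185 kb). Downstream they ran to TRIM56 (240 kb), to VGF (335 and 320 kb), to PLOD3 and ZNHIT1 (375 kb) and to FIS1, a mitochondrial fission protein (415 and 400 kb). In STAG2-KD alone both SRRT anchors met AP1S1 (325 and 310 kb). The promoter of MEPCE and ZCWPW1 was met by the 3′ anchor in WT (460 kb) and by the start anchor in STAG2-KD (445 kb), so this private pair of loops joined the same genes from different SRRT anchors. The loops of SRRT were thus mostly found in both lists, and its private loops partly went to the same partners.

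**Figure D3:**
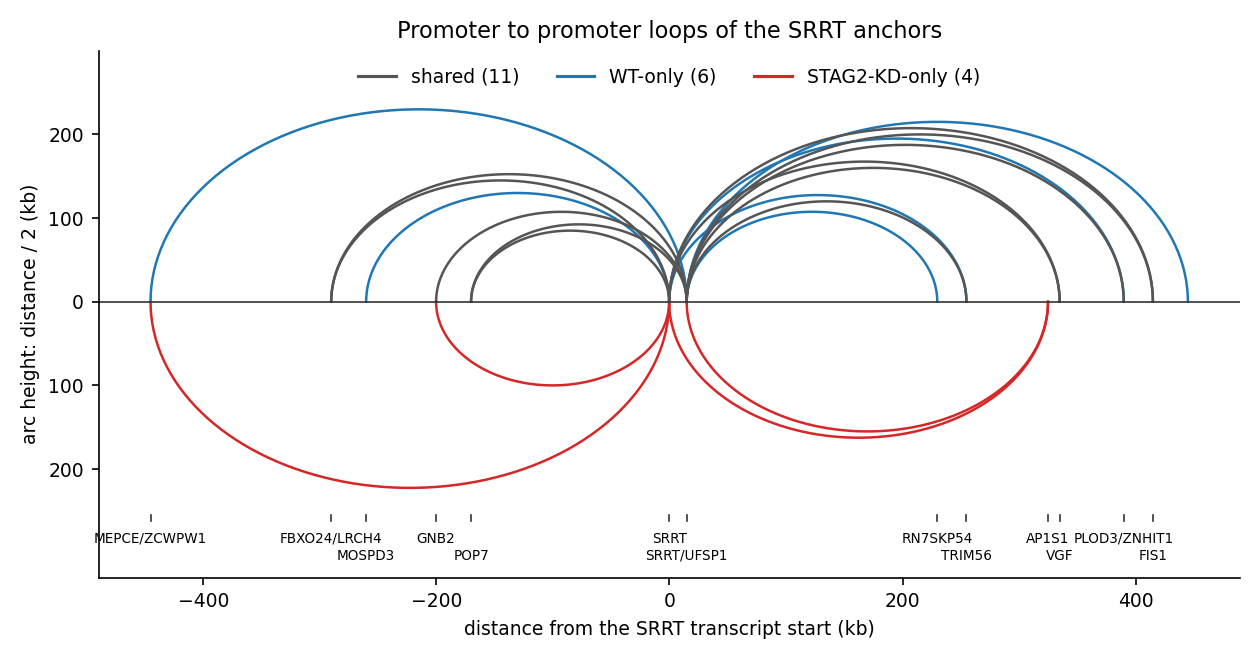
Promoter to promoter loops of the 2 SRRT anchors, drawn as arcs over the distance from the SRRT transcript start in kb (x axis), with arc height equal to distance divided by 2 (y axis, kb). Shared loops (11) and WT-only loops (6) are drawn upwards, STAG2-KD-only loops (4) downwards, and genes at the anchors are named under the axis. The partners lie on both sides, from -445.2 kb to 444.8 kb.

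VPS13D on chromosome 1 was in 15 and 11 loops with 10 shared, and its 7 anchors mostly met one another or the promoter of DHRS3, a retinal reductase, at 120 to 320 kb. SLC3A2, the heavy chain of the CD98 amino acid transporter, had 12 loops in each list with 5 shared, and its neighbour WDR74, a ribosome assembly factor, had 13 and 8 with 5 shared. Both lie on chromosome 11 and both met AHNAK, TTC9C and BSCL2 with GNG3 in shared loops. LMNA, which encodes lamins A and C, had 13 and 9 with 6 shared, among them loops to KHDC4 (180 and 195 kb) and PMF1 (100 and 85 kb). BCL9L, a coactivator of beta-catenin, had 13 and 9 with 6 shared, among them loops to DDX6, an RNA helicase (135 kb), and to RPS25 and TRAPPC4 (105 kb). ZCWPW1, which shares an anchor with MEPCE, had 13 and 9 with 5 shared. UBALD2 on chromosome 17 had 11 and 10 with 6 shared from a single anchor, and all 6 shared partners lay on 1 side, from EXOC7 at 165 kb to WBP2 at 410 kb. In none of the 8 genes was the WT count below the STAG2-KD count.

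Over the 5913 protein-coding genes in a promoter to promoter loop of either list, 1534 had the same number in both, 2558 had more in WT and 1821 had more in STAG2-KD. The WT list also held more such loops, 4679 against 4180. The change was at least 5 loops in 24 genes, 13 of them with more in STAG2-KD and 11 with more in WT. These counts take each gene singly, so loops of 1 anchor count for every gene that starts there. For example, 3 genes went from 9 to 2 loops, and PDE6G, 1 of them, shares its anchor with CCDC137 and OXLD1. The genes with the largest changes were chosen by that change, which is given as a description.

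Among the genes with more loops in STAG2-KD, H2BC6, a histone H2B gene of the chromosome 6 cluster, went from 1 loop to 9. The loop to H1-2 at 125 kb was shared. Of the 8 loops found in STAG2-KD alone, 5 ended at histone gene anchors, at 80 to 150 kb, 1 of them again at H1-2 (115 kb). All 8 left from a different H2BC6 bin than the shared loop. MAP3K12, which encodes a stress kinase of neurons and shares its anchor with TARBP2, a partner of Dicer, went from 1 to 8 with none shared. Its STAG2-KD loops reached SPRYD3 (420 kb), ZNF740 (315 kb), ESPL1, which encodes separase, the protease that cuts cohesin (230 kb), AAAS (175 kb), SP7 (155 kb), PRR13 (55 kb), ATF7 (130 kb) and ATP5MC2 (175 kb). The single WT loop also joined MAP3K12 to ATF7, at 125 kb, from the same MAP3K12 bin to the neighbouring bin on the ATF7 side. BCL2L12, with IRF3 or PRMT1 at its anchors, went from 2 to 9 with 1 shared, and its partners in STAG2-KD alone included RPL13A (185 kb), FUZ (140 kb) and AKT1S1 (215 and 205 kb). AHDC1, an AT-hook protein gene, went from 3 to 9. All 3 of its WT loops were shared, and 2 of the 6 added loops joined it to IFI6 (115 and 65 kb). STAMBP, a deubiquitinase of endosomes, went from 1 to 7, with loops to DUSP11 (50 kb), ACTG2 (60 kb), DGUOK (95 kb), BOLA3 (315 kb) and MOB1A (350 kb) in STAG2-KD alone.

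Among the genes with more loops in WT, PDE6G, which shares its anchor with CCDC137 and OXLD1, went from 9 to 2 loops. Both remaining loops, to MCRIP1 (160 kb) and to P4HB, a disulfide isomerase (185 kb), were shared, and the WT-only loops reached ACTG1 (155 kb) and SIRT7 (245 kb). DUSP16, a phosphatase of stress kinases, went from 7 to 1, and the shared loop joined 2 of its own starts at 55 kb. Its WT-only loops met MANSC1 (165 and 220 kb), BORCS5 (200 kb), CREBL2 (105 kb) and CDKN1B, the cell cycle inhibitor p27, with GPR19 (125 and 135 kb). TCF25 went from 8 to 2 with 1 shared, and a WT-only loop of 50 kb joined it to the anchor of MC1R, the melanocortin receptor that sets pigment type, and TUBB3. MEPCE, an enzyme that caps the 7SK RNA, went from 13 to 8 with 5 shared. WDR74 went from 13 to 8, likewise with 5 shared.

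**Figure D4:**
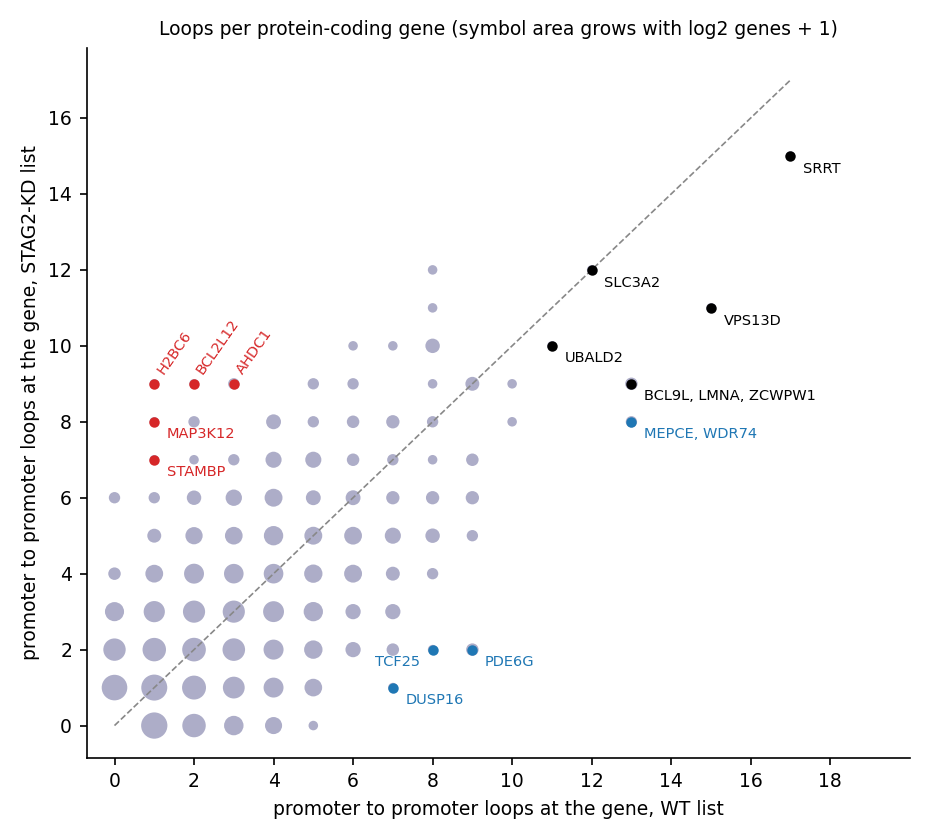
Number of promoter to promoter loops of each protein-coding gene in the WT list (x axis) and the STAG2-KD list (y axis). Pale symbols stand for all genes with that pair of counts, with an area that grows with log2 of their number plus 1, the dashed line marks equal counts, and named genes are those in the most loops (black) or with the largest gain (red) or loss (blue) in STAG2-KD. H2BC6 lies at 1 and 9 and PDE6G at 9 and 2, while SRRT lies near the line at 17 and 15.

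Joined by shared loops, the anchors fell into 905 groups, of which 554 were isolated pairs (61.2%) and 17 held at least 10 anchors. The largest lay around SRRT on chromosome 7, with 23 anchors and 32 shared loops over 1735 kb, from FAM200A and ZNF655 to FIS1. It took in MCM7, a subunit of the replicative helicase, and COPS6 of the COP9 signalosome, and 10 WT-only and 11 STAG2-KD-only loops also ran between its anchors. The next, on chromosome 11, had 17 anchors and 17 shared loops over 1120 kb and was centred on FAU, a ribosomal protein gene, with MRPL49 and ZNHIT2. It held FOSL1, an AP-1 subunit, CDCA5, which encodes the cohesin protector sororin, and CFL1. Of the 3 groups of 15 anchors, one around LMNA on chromosome 1 held CCT3 and MEF2D. Another, on chromosome 12, held GAPDH, CHD4, TNFRSF1A, LTBR and TPI1, with 18 shared loops over 745 kb. The other group on chromosome 12 spanned 760 kb with 21 shared loops and held PMEL, a structural protein of melanosomes, at the same anchor as CDK2, together with CD63, RPS26, PA2G4, STAT2 and TIMELESS.

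Gene classes were described by how many of their genes lay at an end of a promoter to promoter loop, beside the 25.5% and 22.9% of all autosomal protein-coding genes given above. Ribosomal protein genes did so in 52 of 82 in WT (63.4%, 52.0 to 73.8) and 41 of 82 in STAG2-KD (50.0%, 38.8 to 61.2), led by FAU with 9 and 9 loops, RPS26 with 9 and 6, and RPS27 with 6 and 9. RPS15 had 5 and 1. Mitochondrial ribosomal proteins had 30 and 36 of 78, with MRPS16 at 7 and 3 loops. Proteasome subunits had 25 and 27 of 47, and 37 of their 63 WT loops were shared (58.7%), as were 37 of their 63 STAG2-KD loops. PSMD2, a subunit of the regulatory particle, had 6 and 6 with 5 shared. Subunits of respiratory complex I had 22 and 21 of 35, and translation initiation factors 23 and 25 of 52, with EIF4A1, an RNA helicase, at 5 and 7 loops. In these housekeeping classes the share of genes exceeded the background in both lists. Loops of any kind were also frequent in them, while 11786 of all 18977 promoters had none. In the order of the classes above, they were found for 61 and 58 of 82 genes, 50 and 50 of 78, 32 and 33 of 47, 27 and 28 of 35, and 33 and 34 of 52. Whether the excess is particular to promoter to promoter loops was not tested.

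Replication-dependent histone genes had 32 and 36 of 66. In contrast to the other classes they were largely joined to one another, in 18 of the 26 WT loops and 26 of the 35 STAG2-KD loops, 10 of them shared. H2AC4 and H3C2, at 1 anchor, had 7 and 5 loops with 4 shared, and H1-2 had 4 and 7 with 3 shared. Zinc finger genes had 138 and 108 of 542 (25.5% and 19.9%), near the background, with 41 and 28 loops within the class, 12 of them shared. These families hold near-identical copies, and how reads that match several copies were treated is not given in the sources used here, so single members are uncertain. Some tissue-restricted families were rarely present. There were 0 and 1 of 413 olfactory receptor genes, where 0 of 413 allows a share of up to 0.889% (exact interval), 5 and 3 of 149 keratin genes and 5 and 3 of 53 clustered protocadherins. HOX genes had 4 and 5 of 39, and the STAG2-KD interval (4.30 to 27.4) included the background. A loop of any kind was found for 15 and 16 HOX genes. Solute carrier genes had 83 and 73 of 353 (23.5% and 20.7%), S100 genes 4 and 5 of 18 (22.2% and 27.8%), and HLA genes 4 and 5 of 19 (21.1% and 26.3%). The intervals of these last classes included the background in both lists.

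**Figure D5:**
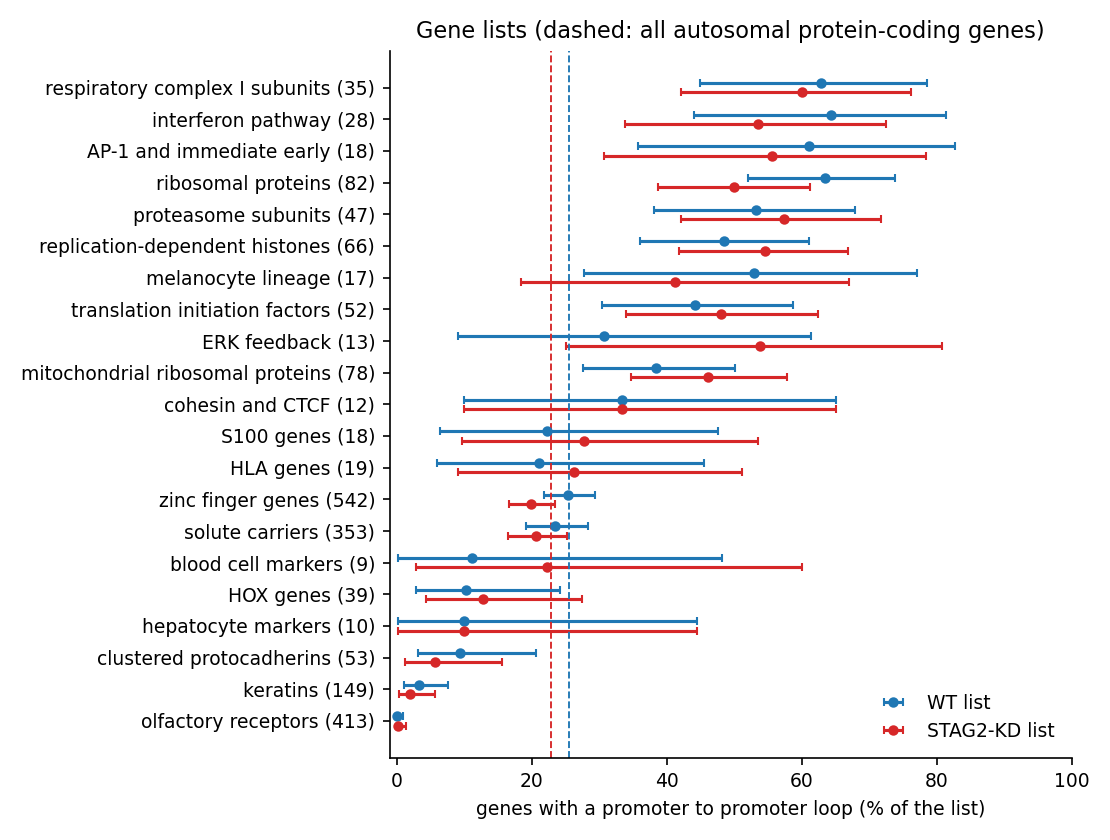
Percent of the genes of each class (y axis, number of autosomal genes in brackets) at an end of a promoter to promoter loop (x axis), in the WT list (blue) and the STAG2-KD list (red), with 95% exact binomial intervals. Dashed lines mark all autosomal protein-coding genes, at 25.5% and 22.9%, and the housekeeping classes lie to their right while keratins and olfactory receptors lie to their left.

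Genes of the melanocyte lineage had a promoter to promoter loop in 9 of 17 in WT and 7 of 17 in STAG2-KD, with 15 and 11 loops and 5 shared. PMEL had 5 and 3 loops with 1 shared, to DNAJC14 at 140 kb. MLANA, a melanosome antigen, had 2 and 2 with 1 shared, to ERMP1 at 65 kb. RAB27A, which moves melanosomes to the cell edge, had 2 and 2, both shared. SOX10, a lineage transcription factor, had 1 shared loop to POLR2F at 60 kb. MITF, TYR, DCT and KIT had 0 in both lists. The hepatocyte gene with such a loop was HNF4A, in both lists.

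Interferon pathway genes had a loop in 18 and 15 of 28, with 41 and 43 loops and 16 shared. Among the interferon-induced genes, IFI6 had 6 loops in WT, all of them shared, and 10 in STAG2-KD, where the added loops met AHDC1, GPR3 (280 kb) and THEMIS2 (205 kb). ISG15 had 1 and 2, MX1 1 and 2 and ISG20 1 and 1, and a shared loop of 60 kb joined IFIT1 to IFIT3. The added MX1 loop met MX2 at 50 kb. OAS1 and USP18 each had 1 loop in WT and 0 in STAG2-KD. Among the receptors, IFNAR1 and IFNAR2 each had 1 and 0, and IFNGR1 and IFNGR2 had 0 in both. Among the kinases, TYK2 had 4 and 1 with 1 shared, to ICAM1 at 110 kb, JAK1 had 1 and 1 with 0 shared, and JAK2 had 0 in both. Of the signal transducers, STAT2 had 5 and 7 with 4 shared, and STAT3 had 7 and 4 with 0 shared. For STAT3 the same partners, RAB5C, ATP6V0A1 and COASY, appeared in both lists from other bins.

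Of the interferon regulatory factors, IRF1 had 5 and 6 loops with 2 shared, IRF2 had 3 and 0, IRF3 had 0 and 3 and IRF7 had 1 and 2 with 0 shared. IRF9, a DNA-binding partner of STAT2, had 1 loop in the WT list and 2 in the STAG2-KD list, and none was the same. The WT loop joined it to DCAF11 and NRL at 50 kb, and the STAG2-KD loops joined it to CHMP4A and MDP1 at 50 kb and to GMPR2 at 76 kb. The loop to GMPR2, between chr14:24628001-24633000 and chr14:24704001-24709000, is the only line of either list whose positions do not fall on the 5 kb grid, so it could not match a WT loop, and RNF31 shares its IRF9 anchor. No loop of this kind was listed in either group for IRF4, IRF5, IRF8 or CD274, the PD-L1 gene. Against the other genes of the pathway, IRF9 was thus neither among those with the most loops of this kind nor among those with the largest change in them. Loops from IRF9 to anchors without a transcript start lie outside this count.

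Genes of cohesin and CTCF had a promoter to promoter loop in 4 of 12 in each list, with 9 and 10 loops and 3 shared. STAG1 had 2 and 2 loops with 1 shared, to NCK1 at 110 kb. CTCF had 3 and 2 with 1 shared, to ENKD1 and PARD6A at 100 kb, and CDCA5 had 2 and 3 with 1 shared, to ARL2 at 70 kb. SMC3, a core subunit of the ring, had 2 and 0, and MAU2, which loads cohesin with NIPBL, had 0 and 3. RAD21, NIPBL, WAPL, PDS5A, PDS5B, ESCO1 and ESCO2 had 0 in both lists. AP-1 and immediate early genes had 11 and 10 of 18, with FOSL1 at 4 and 6 loops, EGR1 at 1 and 4 and JUND at 3 and 4, and FOS and JUN at 0 and 0. Genes of ERK feedback had 4 and 7 of 13. DUSP6, the ERK phosphatase, had 3 and 0, while ETV4, SPRY4, SPRED2 and PHLDA1 each had 0 and 2.

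The letters of the CTCF core CCANNAGNNGGC, searched on both strands, stood in 21.3% of the 7022 anchors of promoter to promoter loops and in 17.8% of all 30601 anchors. Both anchors held them in 354 of the 6934 distinct loops (5.11%), and 319 of these had a single direction at each end. The 2 cores faced each other in 99 of the 319 (31.0%, 26.0 to 36.4), against 36.7% of single-promoter loops (32.3 to 41.3) and 41.5% of loops without promoters (35.4 to 47.8). Facing cores were not the most common arrangement. In promoter to promoter loops 48.0% of the pairs pointed the same way and 21.0% pointed apart. The same-way share was 46.8% in single-promoter loops and 44.2% in loops without promoters. Whether facing exceeded what unrelated directions would give was not tested. Promoter to promoter loops differed from loops without promoters by -10.4 points (-18.2 to -2.57), and the difference from single-promoter loops did not exceed its interval (-12.3 to 1.14 points). The facing share was 27.2% in shared, 36.4% in WT-only and 27.6% in STAG2-KD-only loops, with intervals that overlapped (18.4 to 37.4, 28.1 to 45.4 and 19.0 to 37.5). Of the 12 shared loops between protein-coding genes with facing cores, the longest joined TIMM44 to CERS4 over 310 kb, and another joined BRME1 to ASF1B, a histone chaperone gene, over 255 kb. Their cores are shown in capitals with 10 bases on either side, each read 5′ to 3′ on the strand of the core, to let the reader see the facing directions.
TIMM44 anchor, chr19:8009247-8009278, plus strand: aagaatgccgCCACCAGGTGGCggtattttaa
CERS4 anchor, chr19:8318045-8318076, minus strand: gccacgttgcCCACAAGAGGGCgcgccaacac
BRME1 anchor, chr19:13991014-13991045, plus strand: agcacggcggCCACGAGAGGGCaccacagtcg
ASF1B anchor, chr19:14247667-14247698, minus strand: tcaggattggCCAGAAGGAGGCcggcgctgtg
In both pairs the left core read on the plus strand and the right core on the minus strand, the facing arrangement described above.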

How the data were processed

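H3K27ac HiChIP was performed on M14 cells (WT and STAG2-KD, 2 samples each by title). By the methods of the study, chromatin was cut with MboI, reads were aligned to hg19 by HiC-Pro, and the authors used hichip-peaks for peaks and FitHiChIP for loops. Tool versions are not given in the sources used here. Each deposited loop list has 3 columns (chromosome, left anchor start, right anchor end) and no counts or scores, so a missing loop may lie just short of the caller's limit, and depth per loop is unknown. Whether a list merges both samples was not stated.

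Distance was the right end minus the left start minus 5 kb. Starts came from GENCODE release 44 on GRCh37. Loops with the same bins at both anchors were shared. Exact Clopper-Pearson and Newcombe intervals were computed at 95% with Python 3.11.15, scipy 1.17.1 and statsmodels 0.14.6, and groups of linked anchors with networkx 3.6.1. Matching was tested on simulated lists. Sequences were read from GRCh37 with pysam 0.24.0. The loops and gene lists were chosen with earlier results of these data known. Genes were named by rule, with ties settled by chromosome and position: the 8 in most loops (1 gene per anchor), the 5 largest gains and losses, the 5 longest loops per set, the 5 largest groups, the 5 genes with most same-gene loops, the off-grid line and listed genes, in full for the interferon and cohesin lists. Some genes and sequences that the rule names are not reported here.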

Additional observations from a re-analysis of the deposited data

How the results depend on the processing

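No paired analysis was possible because there was 1 list per group and no test was run. The 15 main values were recomputed as 436 further values in all under other settings, of which 367 stayed within the 95% interval of the value as reported (for counts, within 1.5 times) and 69 moved beyond it.

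The number of loops depended on the definition of a promoter. It was 8200 in WT and 7470 in STAG2-KD with starts up to 5 kb outside an anchor, 2832 and 2503 with canonical starts alone, 2842 and 2495 between 100 and 400 kb, and 2110 and 1949 in the earlier 50% of the lines of each chromosome. In the same order of settings, 38.0%, 43.9%, 38.3% and 37.2% of WT loops and 41.7%, 49.7%, 43.6% and 40.3% of STAG2-KD loops were shared. Sharing rose to 45.4% and 50.8% within 1 bin and to 50.4% and 56.8% within 2 bins, and was 47.6% of STAG2-KD loops with protein-coding starts. STAG2-KD-only loops were 46.8% of the private ones in the earlier lines.

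Of the private loops of 50 to 500 kb, promoter to promoter loops were 41.8% in WT and 43.3% in STAG2-KD with starts up to 5 kb away, so that the order of the sets turned, 13.1% and 12.5% with canonical starts, 16.8% and 16.4% with protein-coding starts, and 21.3% of WT-only loops in the earlier lines. The median distances of WT-only and STAG2-KD-only loops were 120 and 120 kb in the earlier lines and 175 and 180 kb between 100 and 400 kb, which the limits set. Protein-coding starts at both anchors were found in 70.0% of WT and 70.3% of STAG2-KD loops with starts up to 5 kb away, 72.5% and 73.1% with canonical starts, 74.3% and 72.9% in the earlier lines, and 74.1% of WT loops between 100 and 400 kb. Same-gene loops were 8.85% and 8.70% with starts up to 5 kb away, 7.11% and 6.52% in the earlier lines, 4.05% and 3.69% between 100 and 400 kb, 7.08% and 6.70% with protein-coding starts, and 0 with canonical starts, where a gene has 1 start by construction.

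Both anchors of WT-only and STAG2-KD-only loops lay in the other list in 38.9% and 47.0% in the earlier lines, 49.2% and 53.8% with starts up to 5 kb away, 58.8% and 68.1% with canonical starts, 63.3% and 70.5% within 1 bin and 66.0% and 72.8% within 2 bins, in 58.2% of WT-only loops between 100 and 400 kb and in 65.0% of STAG2-KD-only loops with protein-coding starts. Without chromosomes 16, 17 and 19 in turn, promoter to promoter loops were 21.9%, 21.7% and 21.6% of the WT-only loops, and without 17 and 19 they were 21.2% and 21.2% of the STAG2-KD-only loops. Without chromosome 19, 74.2% of WT and 73.7% of STAG2-KD loops had protein-coding starts at both anchors. The order of the private sets in their share of promoter to promoter loops, whose difference as reported did not exceed its interval, also turned in the earlier lines and without chromosomes 11, 12 or 16. Leaving out the off-grid line moved no value beyond its interval. The causes of these shifts, beyond those named, were not tested. The lists give no depth per loop, so a loop missing from a list may be a borderline one, and the replicate spread is unknown.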

Other observations

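Promoter to promoter loops were unevenly spread over the chromosomes. They made up 57.6% of the WT loops of 50 to 500 kb on chromosome 19, 46.7% on chromosome 16 and 40.4% on chromosome 17, against 13.1% on chromosome 13, 13.8% on chromosome 10 and 13.97% on chromosome 4. Per 100 protein-coding genes, chromosome 17 had 37.7 of them in WT, chromosome 16 had 34.4 and chromosome 4 had 7.49. The share of WT loops found in STAG2-KD lay between 31.4% on chromosome 21 (19.1 to 45.9) and 46.4% on chromosome 19 (41.6 to 51.2). STAG2-KD-only loops exceeded WT-only loops on chromosomes 6 (50.2%, 43.8 to 56.6) and 20 (52.6%, 44.4 to 60.6), where both intervals included 50%, and the interval lay below 50% on 7 of 22 chromosomes and above it on 0.

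Triplets of promoters joined by all 3 possible loops came to 438 for WT and 396 for STAG2-KD, and 105 consisted of shared loops alone. An anchor near the noncoding gene BCAN-AS2 had the most shared loops, 6, within the group around LMNA. Promoters with a loop in 1 list alone differed little in median GC content from those in both. It was 62.9% around the start for genes with a shared loop, 63.8% for genes in WT-only loops and 63.2% for genes in STAG2-KD-only loops, against 59.7% for genes without a loop. The share with a CpG-rich start was 88.2% for genes with a shared loop (86.8 to 89.5) and 87.0% for WT-only (85.0 to 88.8). It was lower for STAG2-KD-only, at 84.0% (81.4 to 86.4), an interval that did not overlap that of the shared genes.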
